A study of Mus musculus with 16 samples.

Results

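Fluorescent cells sorted from the whole brain of newborn GAD67-eGFP mice were compared with total brain on 4 of the 16 two-colour Agilent arrays of the series. The 4 arrays were chosen by their titles, which name whole brain GABAergic cells. On each array, amplified cDNA of the sorted cells carried Cy5 and amplified cDNA of a total brain reference carried Cy3, with 250 ng of each labelled. The labels add the word red to both dyes, so the direction of every ratio rests on the dye names, Cy5 for the sorted cells and Cy3 for the reference, which the labelling protocol gives too. The sorted cells came from 4 dissociated brains at postnatal day 1, on a C57Bl/6 background, and the labels call the 4 arrays biological replicates without saying which brain or brains each one held. The reference RNA was extracted from the whole brain of 4 mice of the same age, whose genotype the labels do not give, and served all arrays. The other 12 arrays held sorted cells from 4 regions (olfactory bulb, cortex, striatum, cerebellum) dissected from 6 mice of the same line and age, with 3 arrays a region. A sort on GAD67-eGFP takes any cell with enough fluorescence, whatever part of the brain it came from. The whole brain samples therefore mix fluorescent cells of forebrain, midbrain, hindbrain and cerebellum in shares that were not measured. The log2 ratio of sorted cells to total brain is positive where the sorted cells had the higher signal. Set against markers of GABAergic neurons, the label was met by the 5 measured Dlx genes and by Slc32a1, which were above total brain, and not by Gad1, which was below it, so the samples are called sorted cells or whole brain cells here. In a mixed sample, fewer cells of a type and less RNA per cell cannot be told apart.

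GABA is the main inhibitory transmitter of the brain. It is made from glutamate by a pair of decarboxylases, GAD67 from Gad1 and GAD65 from Gad2 and is loaded into vesicles by the transporter VGAT from Slc32a1. In the embryonic forebrain, most GABAergic neurons arise in the ganglionic eminences under homeodomain factors of the Dlx family, whose genes lie in neighbouring pairs, and migrate from there into cortex, striatum and olfactory bulb. GABAergic neurons of midbrain, hindbrain and cerebellum arise under other factors, and do not pass through a Dlx stage. At birth these neurons are still migrating and extending processes.

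Promoter windows are shown for 3 genes whose ratios are described below. Whether the promoter sequences bear on those ratios was not tested. Dlx6os1, a long noncoding RNA from the Dlx5 and Dlx6 locus, had the highest ratio of the Dlx genes, while Rps12 and Rps6, both encoding proteins of the small ribosomal subunit, had ratios of opposite sign. The windows run from 250 bases before to 50 after the start, 300 bases in all, and are RefSeq sequence of build GRCm38.p6, printed on the strand of the gene. For Dlx6os1 the table holds windows for 2 starts, at chr6:6869484-6869783 and chr6:6861634-6861933 on the minus strand, in which capitals mark TAATTA, the core that homeodomain proteins bind.
Dlx6os1, first window: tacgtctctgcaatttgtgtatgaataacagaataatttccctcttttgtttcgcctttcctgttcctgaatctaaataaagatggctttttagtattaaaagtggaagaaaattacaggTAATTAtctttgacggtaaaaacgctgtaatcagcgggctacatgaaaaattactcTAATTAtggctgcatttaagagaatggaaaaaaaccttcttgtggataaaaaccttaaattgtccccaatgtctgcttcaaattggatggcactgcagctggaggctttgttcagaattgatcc
Dlx6os1, second window: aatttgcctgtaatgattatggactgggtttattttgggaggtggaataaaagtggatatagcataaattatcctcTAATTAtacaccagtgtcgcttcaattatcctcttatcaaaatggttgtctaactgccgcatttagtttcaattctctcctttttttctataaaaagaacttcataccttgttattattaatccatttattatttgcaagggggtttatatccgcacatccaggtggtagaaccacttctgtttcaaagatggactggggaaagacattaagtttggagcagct
Rps12 lies at chr10:23787160-23787459 and Rps6 at chr4:86857318-86857617, both on the minus strand, and capitals mark CCGGAAG, the core bound by ETS factors, on either strand.
Rps12: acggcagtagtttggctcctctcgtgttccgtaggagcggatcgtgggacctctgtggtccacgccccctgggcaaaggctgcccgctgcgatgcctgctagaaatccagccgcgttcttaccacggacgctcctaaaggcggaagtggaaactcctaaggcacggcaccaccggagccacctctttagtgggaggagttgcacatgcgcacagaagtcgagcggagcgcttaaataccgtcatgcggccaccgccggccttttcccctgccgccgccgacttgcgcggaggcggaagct
Rps6: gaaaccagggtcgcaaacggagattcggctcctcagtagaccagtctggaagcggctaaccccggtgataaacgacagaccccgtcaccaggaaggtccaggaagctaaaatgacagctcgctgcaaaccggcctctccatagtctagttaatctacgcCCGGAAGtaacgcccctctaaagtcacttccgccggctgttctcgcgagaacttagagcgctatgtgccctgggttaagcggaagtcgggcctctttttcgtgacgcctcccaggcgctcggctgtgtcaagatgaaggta
The first Dlx6os1 window held TAATTA 2 times and the second 1 time. This palindrome, which reads the same on both strands, occurred in 5.29% of all 32851 promoter windows. The Dlx1 and Dlx2 windows held none. CCGGAAG occurred in the Rps6 window and not in that of Rps12. It was in 36.1% of the 72 windows of ribosomal protein genes, against 8.86% of all windows. Of the windows of ribosomal protein genes called higher in the sorted cells it was in 4 of 17, and of those called lower in 7 of 22.

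The median spot signal of the whole brain arrays ran from 248.2 to 398.8 units for sorted cells and from 93.4 to 159.5 units for total brain, and 84.2% to 94.1% of spots were well above background for sorted cells and 72.1% to 87.2% for total brain. Across genes, which are not independent replicates, the 4 arrays correlated with each other at Pearson's r from 0.946 to 0.992, and with the regional arrays at 0.621 to 0.751. The 4 whole brain arrays were scanned in one batch and the 12 regional arrays in another, so that the scan and the difference between whole brain and regions cannot be told apart. A gene was called where limma gave an adjusted p under 0.05 and the mean ratio was at least 2-fold. Of 27262 genes tested, 2355 (8.64%) were called higher and 3736 (13.7%) lower in the sorted cells, together 22.3%. At the adjusted p alone 79.7% passed, and all counts below therefore use both limits. The share of higher genes among those called was 38.7%, and moved to 50.9% with no offset in the background correction, to 55.3% with the scanner's own log ratio and to 67.8% with centring on the median alone. The scanner's ratio also shifted the median of all genes to 0.25, against 0.09 as fitted. The ratio against a single reference RNA leaves out the spread between reference preparations, and the dyes were not swapped. Errors below are SE of the limma fit, unless they are given otherwise. Their spread is pooled within groups over all 16 arrays and moderated across genes. They are therefore not the spread of the 4 whole brain arrays alone, which can be wider. For a difference from the regions, the SE is that of the fitted contrast.

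All 5 measured Dlx genes rose in the sorted cells, while the genes of GABA synthesis did not. The 4 arrays gave Dlx6os1 log2 ratios of 3.11, 3.32, 3.40 and 3.32, a mean of 3.28 ± 0.06 or 9.74-fold (limma adjusted p = 1.20e-19). Its second probe was at 1.59. Its partner Dlx6, a homeodomain factor of postmitotic GABAergic neurons, stood at 2.51, 2.83, 2.86 and 2.45, a mean of 2.66 ± 0.07. Dlx1 averaged 1.71 ± 0.06, Dlx5 1.46 ± 0.07 and Dlx2 1.24 ± 0.08, and no array of the 4 fell below 1.02 for any of the 5 genes. The 5 kept their call under every alternative run, with the median of the list between 1.40 and 2.19. The whole brain ratio of each Dlx gene lay between that of cerebellum and the highest region. Dlx1, for example, was at 1.71 in whole brain cells, against 3.82 in the olfactory bulb, 3.46 in the cortex, 3.33 in the striatum and 0.63 in the cerebellum.

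**Figure D1:**
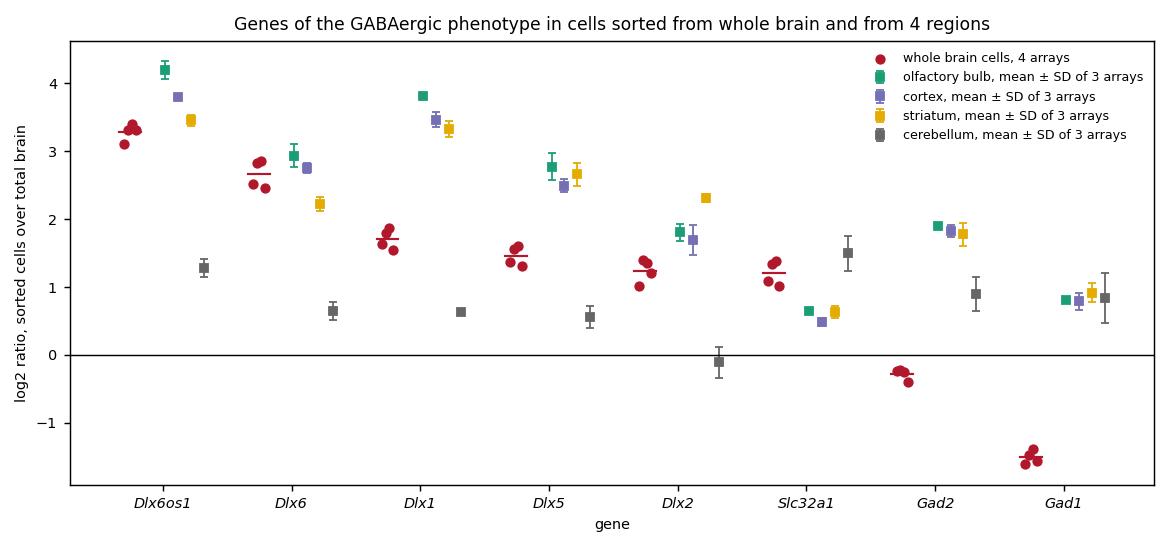
Log2 ratio of sorted cells over total brain (vertical axis) for 8 genes of the GABAergic phenotype (horizontal axis): red points are the 4 whole brain arrays with their mean as a line, and squares are region means with SD over 3 arrays. The 5 Dlx genes and Slc32a1 lie above 0 on all whole brain arrays, and Gad2 and Gad1 lie below 0 on all 4 although all 4 region means of each lie above 0.

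Slc32a1, the vesicular GABA transporter, rose to 1.09, 1.33, 1.38 and 1.02 on the 4 arrays, a mean of 1.21 ± 0.07 (limma adjusted p = 1.33e-11), but to just under 2-fold with scaling between arrays. It was the 1 gene called higher (12.5%) of 8 genes for GABA synthesis, release and uptake, and 3 of the 8 were called lower (37.5%). The shares of all genes were 8.64% and 13.7%. Gad1, whose product GAD67 names the mouse line, fell to -1.61, -1.47, -1.39 and -1.56, a mean of -1.51 ± 0.08 (limma adjusted p = 1.02e-12), and its second probe stood at -1.32. The regional means of the same gene were between 0.79 and 0.91, so that the whole brain arrays lay below all 12 regional arrays and differed from their mean by -2.34 (called). With median centring Gad1 was at -0.97 in whole brain cells, just short of 2-fold. Gad2, for the synaptic form of the enzyme, averaged -0.28 ± 0.07 and was not called. Its 2 probes disagreed, with the dimmer one at 1.38, and its mean turned to 0.20 with median centring and to 0.55 with the mean of probes. The other called genes of this list were Slc6a13 and Slc6a11, encoding transporters found in meninges and in glia, at -1.69 ± 0.09 and -1.28 ± 0.08, the second of which was short of 2-fold with median centring.

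Other transcription factors of the forebrain GABAergic lineage were split. Of 21 measured, 1 was called higher (4.76%) and 7 lower (33.3%), against 8.64% and 13.7% of all genes. Their median was -0.06 against 0.09 over all genes. Sp8, a zinc finger factor of olfactory bulb and caudal interneurons, had 0.97, 1.46, 1.44 and 1.49 on the 4 arrays, a mean of 1.34 ± 0.07, with replicate 1 apart from the others. Meis2, a striatal and olfactory bulb factor, was at 0.73 ± 0.06, short of 2-fold. It passed 2-fold with median centring and with the mean of its probes, the second probe being at 2.24. Foxp1 and Foxp2, forkhead factors of projection neurons, fell to -2.24 ± 0.06 and -2.38 ± 0.09, with all 4 arrays of each between -2.19 and -2.59. Zfhx3, a homeobox factor of striatal neurons, was at -1.68 ± 0.06 but at -0.90 with the mean of its 2 probes.

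Genes that mark single interneuron classes were mostly lower or not called. In the list of the medial ganglionic eminence (MGE) and its interneurons, 3 of 18 genes were called higher (16.7%) and 7 lower (38.9%), against 8.64% and 13.7% of all genes. The ratios of this list ran from -3.73 to 1.55. Sst, encoding the peptide somatostatin, stood at -3.74, -3.64, -3.64 and -3.89, and Npy, encoding neuropeptide Y, at -1.74, -1.62, -1.60 and -1.87, so both were far below total brain on every array. Satb1, a chromatin organiser of MGE interneurons, averaged -2.40 ± 0.06 and Nkx2-1, the factor that specifies the MGE, -1.76 ± 0.09. Lhx6, which acts below Nkx2-1, was at -0.36 ± 0.06 and not called. Elfn1, a synaptic adhesion protein of somatostatin cells, rose to 1.16 ± 0.09, and to just under 2-fold with scaling between arrays. None of 14 genes for caudal eminence interneurons rose and 6 fell (42.9%). Among them were Nr2f1, a nuclear receptor of caudal identity, at -4.01 ± 0.07, and Calb2, for the calcium buffer calretinin, at -3.42 ± 0.06. Vip, for a peptide of one interneuron class, was at 0.02 ± 0.07 over the 3 arrays that measured it.

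Of 16 genes of striatal projection neurons 1 was called higher (6.25%) and 4 lower (25%), against 8.64% and 13.7% of all genes. The ratios of this list ran from -1.85 to 1.55. Penk, encoding enkephalin, was at -1.13 ± 0.07 and Rasgrp2, a guanine nucleotide exchange factor, at -1.48 ± 0.13, while Ppp1r1b, for DARPP-32, was at 0.69 ± 0.07 over 3 arrays and not called. Olfactory bulb interneuron genes gave 4 higher and 4 lower of 15, or 26.7% each way. Beside Sp8, the homeobox gene Vax1 rose to 1.17 ± 0.07, and Dcx, for the microtubule protein doublecortin of migrating neuroblasts, fell to -2.15, -2.12, -2.15 and -2.34. Of 15 genes of the cerebellar GABAergic lineage 1 rose (6.67%) and 3 fell (20%), shares near those of all genes. The one that rose was Kirrel2, a surface protein used to sort GABAergic progenitors of the cerebellum, at 1.09 ± 0.07. Vax1 and Kirrel2 were short of 2-fold with scaling between arrays, Kirrel2 and Penk with the mean of probes, and Penk and Rasgrp2 with median centring. Penk was short of it with scaling too.

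The Hox genes, which pattern hindbrain and spinal cord, gave 7 called higher (18.9%) and 0 lower of 37 measured, against 8.64% and 13.7% of all genes, with a median of 0.40. No Hox gene was called lower under any alternative, and the number called higher ran from 3 to 15, the latter with the scanner's log ratio. Signal was low for part of the list: 26 of the 37 were well above background in both channels on all 4 arrays. Of these 26, 6 were called higher and 0 lower. Hoxa13 averaged 1.82 ± 0.09, Hoxb6 1.67 ± 0.08 and Hoxa9 1.28 ± 0.09. In the regions Hoxa13 averaged 1.29 and Hoxb6 1.56, and no Hox gene was called between whole brain and regions. The second probes of Hoxa13 and Hoxb6 were at 0.25 and 0.17, and Hoxb6 was short of 2-fold with the mean of probes. Genes of midbrain and hindbrain patterning gave 1 higher (3.33%) and 4 lower (13.3%) of 30, neither share above that of all genes. Evx1, a homeobox factor of ventral spinal interneurons, rose to 1.42 ± 0.08, and Gbx2, of the midbrain and hindbrain boundary, fell to -1.72 ± 0.10, and to -0.93 with the mean of probes.

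Genes of other brain cell types were called lower in shares from 1 of 11 for erythroid genes to 12 of 21 for forebrain glutamatergic neurons, against 13.7% of all genes. For forebrain glutamatergic neurons 12 of 21 were called lower (57.1%) and 1 higher (4.76%), with a median of -1.58. Slc17a7, for the vesicular glutamate transporter VGLUT1, stood at -2.003, -2.64, -2.57 and -2.63, and all 4 arrays lay below 0. Neurod6 and Tbr1, transcription factors of cortical excitatory neurons, averaged -2.95 ± 0.08 and -2.55 ± 0.08. Slc17a6, for VGLUT2, was at -0.94 ± 0.07, short of 2-fold as reported and past it with the mean of its probes, at -1.99.

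Astrocyte and radial glia genes gave 11 lower (44%) and 1 higher (4%) of 25, against 13.7% and 8.64% of all genes. Gja1, for the gap junction protein connexin 43, had -4.04, -4.49, -4.52 and -4.76, a mean of -4.45 ± 0.10. Its sorted cell signal was well above background on 3 of the 4 arrays, and it was not tested where both channels had to be. Aldoc, the astrocytic aldolase, averaged -2.56 ± 0.06 and Fabp7, a fatty acid binding protein of radial glia, -1.41 ± 0.06, while Gfap, an intermediate filament of mature astrocytes, was at -0.31 ± 0.06 by one probe and at -1.16 by the other. The gene called higher was Hes5, a Notch target of radial glia, at 1.44 ± 0.07. Oligodendrocyte lineage genes gave 4 lower (21.1%) and 1 higher (5.26%) of 19. Olig1 and Olig2, the factors of the lineage, were at -1.28 ± 0.07 and -1.51 ± 0.06 and Pdgfra, the receptor of its progenitors, at -1.22 ± 0.05. All 3 were short of 2-fold with median centring, and Pdgfra with scaling between arrays.

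Microglial genes gave 4 lower (20%) and 1 higher (5%) of 20, against 13.7% and 8.64% of all genes. Laptm5, a lysosomal protein of blood-derived cells, fell to -2.03 ± 0.08, but the complement gene C1qa was at -0.64 ± 0.06 and the receptor gene Csf1r at -0.16 ± 0.05, neither of them past 2-fold. The other Csf1r probes were at -1.83 and -0.83, and the mean of its probes at -0.94. Of 22 endothelial and pericyte genes 8 fell (36.4%) and 1 rose (4.55%). The junction genes Cdh5 and Cldn5 were at -1.75 ± 0.13 and -1.47 ± 0.08. Cldn5 was short of 2-fold with median centring, and Cdh5 was not tested where both channels had to be well above background. The list of choroid plexus, ependyma and meninges had 13 lower (54.2%) and 0 higher of 24. It held the growth factor gene Igf2, at -5.14, -5.18, -5.21 and -5.33, which was 37.2-fold lower than in total brain by this probe and at -2.76 by its second, and Ptgds, a prostaglandin synthase of the meninges, at -3.05 ± 0.07. Ttr, for the choroid plexus protein transthyretin, averaged -1.69 ± 0.11. Of 11 erythroid genes Hba-a1, for alpha globin, was the 1 called, at -2.16 ± 0.10, and Alas2, of haem synthesis in red cells, was at 0.09 ± 0.07.

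**Figure D2:**
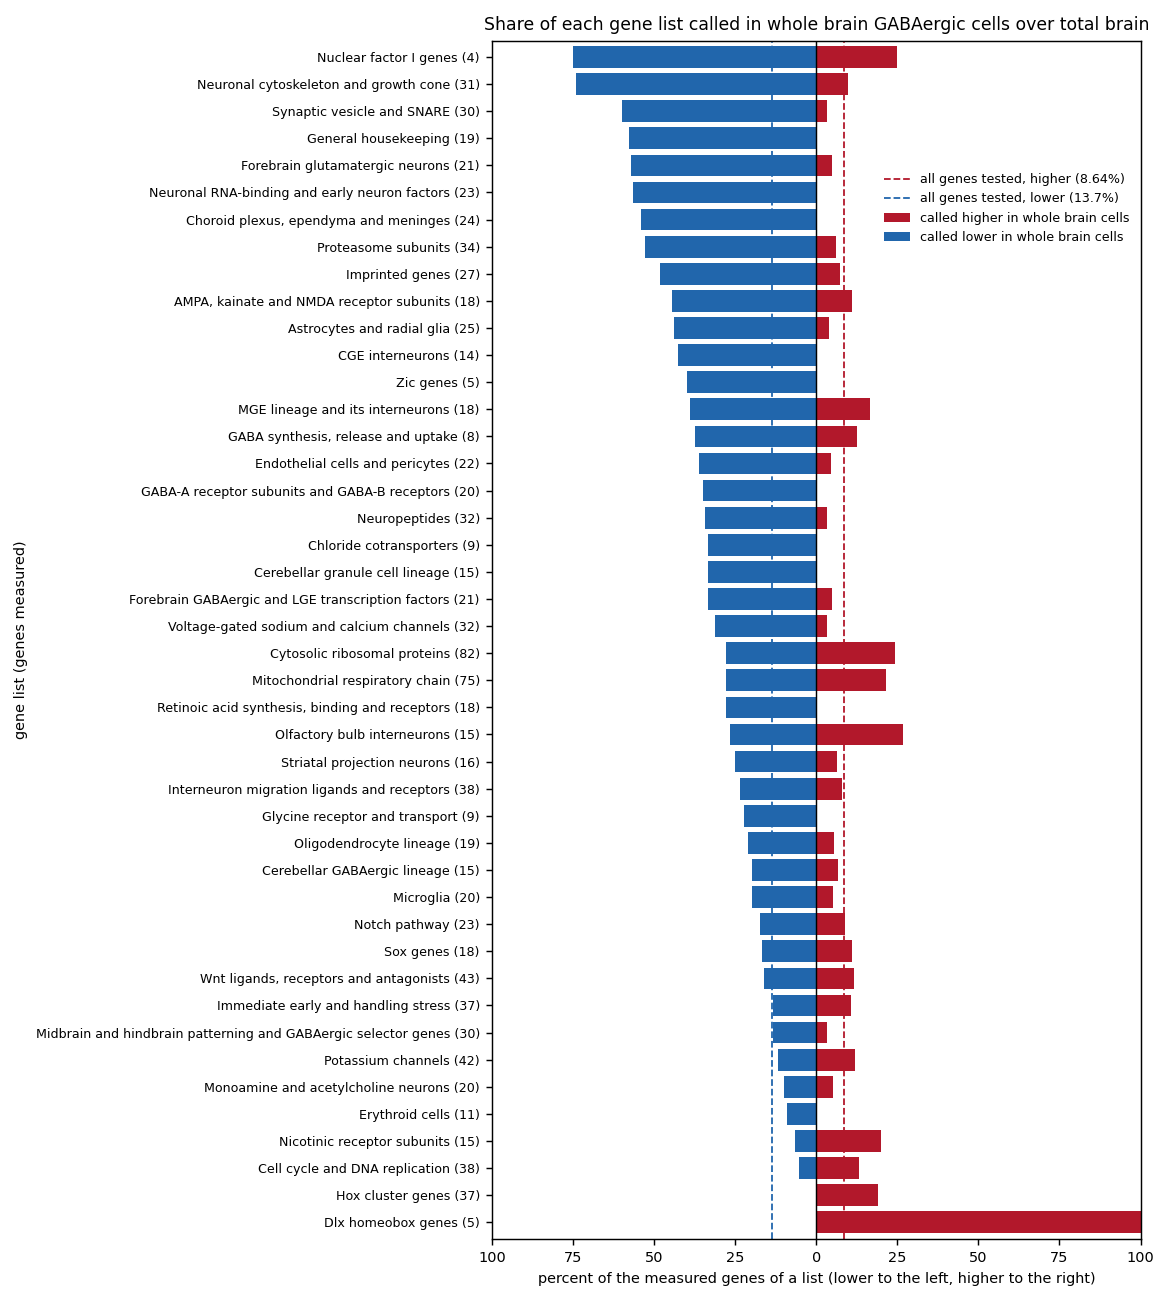
Share of the measured genes of each of 44 lists called lower (blue, to the left) or higher (red, to the right) in whole brain cells, in percent. The number measured is in brackets, and dashed lines mark all genes tested (13.7% lower, 8.64% higher). All 5 Dlx genes were called higher, cytoskeletal, synaptic vesicle and housekeeping genes were mostly called lower, and ribosomal and respiratory chain genes passed both dashed lines.

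Genes shared by most neurons also fell. Of 31 genes of the neuronal cytoskeleton and growth cone, 23 were called lower (74.2%) and 3 higher (9.68%), against 13.7% and 8.64% of all genes. Their median was -1.65. Gap43, a growth cone phosphoprotein, stood at -3.61, -3.59, -3.58 and -3.98, and Ina, for the neurofilament protein internexin, at -3.04, -2.95, -2.99 and -3.25. Mapre1, which encodes the microtubule end-binding protein EB1, fell to -4.94, -4.94, -4.84 and -4.63, and its other 2 probes were also negative, the nearest to 0 at -0.91. The tubulin genes were split. Tubb2b, a beta tubulin of newborn neurons, rose to 2.17, 2.37, 2.57 and 2.15, a mean of 2.32 ± 0.07 or 4.98-fold, and Tuba1a, an alpha tubulin of the same cells, was at 0.43 ± 0.07 and not called. Stmn4, a stathmin that binds tubulin, rose to 1.69 ± 0.07. Tubulin genes have near-identical relatives, and how far each probe separates them was not tested.

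Of 30 genes of synaptic vesicles and SNARE proteins, 18 fell (60%) and 1 rose (3.33%), against 13.7% and 8.64% of all genes. Their median was -1.40. Snap25, a SNARE protein of the plasma membrane, averaged -2.50 ± 0.05, with its 3 probes between -2.51 and -1.99, and Syp, for the vesicle protein synaptophysin, -2.44 ± 0.06. Syt4, a synaptotagmin, fell to -3.90 ± 0.08. The gene that rose was Synpr, for the vesicle protein synaptoporin, at 1.13 ± 0.08, and it was short of 2-fold with scaling between arrays and with the mean of probes. Neuronal RNA-binding proteins and early neuronal factors gave 13 lower (56.5%) and 0 higher of 23. Rbfox1, a splicing factor of mature neurons, was at -2.97 ± 0.10 and Nova1, another, had -1.92, -3.09, -2.96 and -2.15, a wider spread than most.

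Receptors and channels were less uniform. Of 20 subunits of GABA-A and GABA-B receptors 7 were called lower (35%) and 0 higher, against 13.7% and 8.64% of all genes. Those called lower included Gabra5 at -2.07 ± 0.06, Gabra3 at -1.28 ± 0.06 and Gabbr2 at -2.15 ± 0.09. Gabra3 was short of 2-fold with median centring and with the mean of probes. Of the chloride transporters that set the polarity of GABA responses, Slc12a5, for the exporter KCC2 of mature neurons, fell to -2.10 ± 0.06, and Slc12a2, for the importer NKCC1 of immature neurons, was at -0.48 ± 0.07. Of 18 glutamate receptor subunits 8 fell (44.4%) and 2 rose (11.1%). Grik1, for a kainate receptor subunit, was at -2.83 ± 0.08, with its probe nearest 0 at -0.25. Nicotinic receptor subunits gave 1 lower (6.67%) and 3 higher (20%) of 15. The one that fell was Chrna4, at -4.16 ± 0.09 over 3 arrays, although its second probe was at -0.25. Sodium and calcium channel genes gave 10 lower (31.25%) and 1 higher (3.125%) of 32, with Scn2a at -2.74 ± 0.12 over 3 arrays. Potassium channels split evenly, with 5 higher and 5 lower of 42, or 11.9% each way, against 8.64% and 13.7% of all genes. The highest was Kcnd1, of the A-type channel family, at 2.14, 2.09, 2.20 and 2.25.

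Genes of the cell cycle gave 5 higher (13.2%) and 2 lower (5.26%) of 38, against 8.64% and 13.7% of all genes. Mcm7, a subunit of the replicative helicase, rose to 2.40, 2.71, 2.72 and 2.55, a mean of 2.59 ± 0.06. Birc5, for the mitotic protein survivin, averaged 2.32 ± 0.10, and Mki67, a marker of cycling cells, had 0.85, 1.55, 1.61 and 1.62, with replicate 1 low its second probe at 0.24 and the mean of probes short of 2-fold. Pcna and Top2a, of replication and chromosome segregation, were at -0.30 ± 0.07 and -0.29 ± 0.06 and not called. Cdkn1b, an inhibitor of the cycle, fell to -1.43 ± 0.06, though to under 2-fold with median centring and with the mean of probes. The Notch pathway gave 2 higher (8.70%) and 4 lower (17.4%) of 23, near the 8.64% and 13.7% of all genes. Of its target genes Hes5 rose, as given above, and Hes1 fell to -2.30 ± 0.07, and its ligand gene Dll1 fell to -1.32 ± 0.07, short of 2-fold with median centring. Of 43 genes of Wnt signalling 5 rose (11.6%) and 7 fell (16.3%), also near the shares of all genes. The ligand genes Wnt5b and Wnt6 rose to 2.23 ± 0.08 and 1.72 ± 0.08, the second probe of Wnt6 being at 0.07 and its mean of probes short of 2-fold.

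Immediate early genes and genes of handling stress are known to respond to dissociation. They gave 4 higher (10.8%) and 5 lower (13.5%) of 37, near the 8.64% and 13.7% of all genes. Fos rose to 1.38, 1.50, 1.73 and 1.75 and Jund, a partner of Fos, to 1.49 ± 0.06. Klf6, a zinc finger factor of injury responses, fell to -2.55 ± 0.07. Imprinted genes gave 13 lower (48.1%) and 2 higher (7.41%) of 27. H19, a noncoding RNA neighbouring Igf2, was at -4.06, -3.90, -4.05 and -3.42, and Peg10, derived from a retrotransposon, at -3.46, -3.59, -3.49 and -3.73, while Impact, a regulator of translation, rose to 1.37 ± 0.07. The 4 nuclear factor I genes, which act in late progenitors and postmitotic neurons, were all called, 3 of them lower. Nfib averaged -2.01 ± 0.08, Nfix -1.50 ± 0.06 and Nfia -1.27 ± 0.08, and of the 3 Nfib probes 1 was at 0.06 and 1 at -4.25. Nfia was short of 2-fold with median centring.

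Subunits of the same complexes moved in opposite directions. Of 82 genes for cytosolic ribosomal proteins, 20 were called higher and 23 lower, both above the shares of 8.64% and 13.7% among all genes, and the list median was -0.08. Rps12 rose to 2.84, 3.04, 3.10 and 3.01, a mean of 3.00 ± 0.06 or 7.99-fold (limma adjusted p = 7.62e-19). Rps27 averaged 2.80 ± 0.06 and Rps4x 2.84 ± 0.13, with the 4 arrays of Rps4x from 2.18 to 3.46. In the same ribosomal subunit, Rps6 fell to -2.30, -2.47, -2.43 and -2.76, a mean of -2.49 ± 0.08 (limma adjusted p = 1.27e-16), and Rps9 to -2.10 ± 0.09. The second Rps6 probe was at -0.22. All 4 arrays thus placed Rps12 and Rps6 on opposite sides of 0. The small subunit gave 10 higher and 9 lower of 33 and the large subunit 10 higher and 14 lower of 49. Ribosomal protein genes have many near-identical processed copies in the genome, and whether the probes also read copies was not tested. The second Rplp2 probe was at -0.06, beside 3.11 for the brightest. For 8 of the 23 ribosomal genes called lower the probes had both signs, as they did for 1 of the 20 called higher. The mean of probes left 21 ribosomal genes higher and 18 lower, and turned their median to 0.16. Across the alternatives the number called higher ran from 15 to 25 and the number called lower from 14 to 24.

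The respiratory chain was also split, with 16 higher (21.3%) and 21 lower (28%) of 75, against 8.64% and 13.7% of all genes. Its median was -0.12. Atp5e, a small subunit of ATP synthase, rose to 2.25, 2.38, 2.46 and 2.06, Cox7c, of cytochrome c oxidase, averaged 1.93 ± 0.07 and Ndufb11, of complex I, 1.69 ± 0.10. Ndufa12 and Ndufc2, also of complex I, fell to -2.38 ± 0.07 and -2.15 ± 0.08. Complex I gave 6 higher and 9 lower of 36 and ATP synthase 4 higher and 7 lower of 15. Complex IV gave 4 higher and 0 lower of 10, and complex II 0 higher and 3 lower of 4. Probes of both signs were found for 6 of the 21 genes called lower and for 1 of the 16 called higher. With the mean of probes 16 were called higher and 12 lower. Both directions occurred in each alternative, but the number called higher ran from 8 to 26 and the number called lower from 10 to 22.

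Proteasome subunits fell, with 18 lower (52.9%) and 2 higher (5.88%) of 34, against 13.7% and 8.64% of all genes. Their median was -1.21. Of the 20 subunits of the regulatory particle 12 were lower and 0 higher, among them Psmd8 at -3.07, -2.92, -2.90 and -3.02 and Psmd13 at -2.82 ± 0.06. Of the 14 subunits of the core particle 6 were lower, with Psmb2 at -3.01 ± 0.07, and 2 were higher, Psma7 at 1.21 ± 0.06 and Psma2 at 1.04 ± 0.06, both short of 2-fold with scaling between arrays. General housekeeping genes, often used to scale expression, gave 11 lower (57.9%) and 0 higher of 19. Actb, for beta actin, was at -2.08, -2.15, -2.07 and -2.23, Pkm, a glycolytic enzyme, at -2.87 ± 0.06 and Tfrc, the transferrin receptor, at -3.64 ± 0.07. The fall of Actb, Pkm and Tfrc held its call under every alternative.

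**Figure D3:**
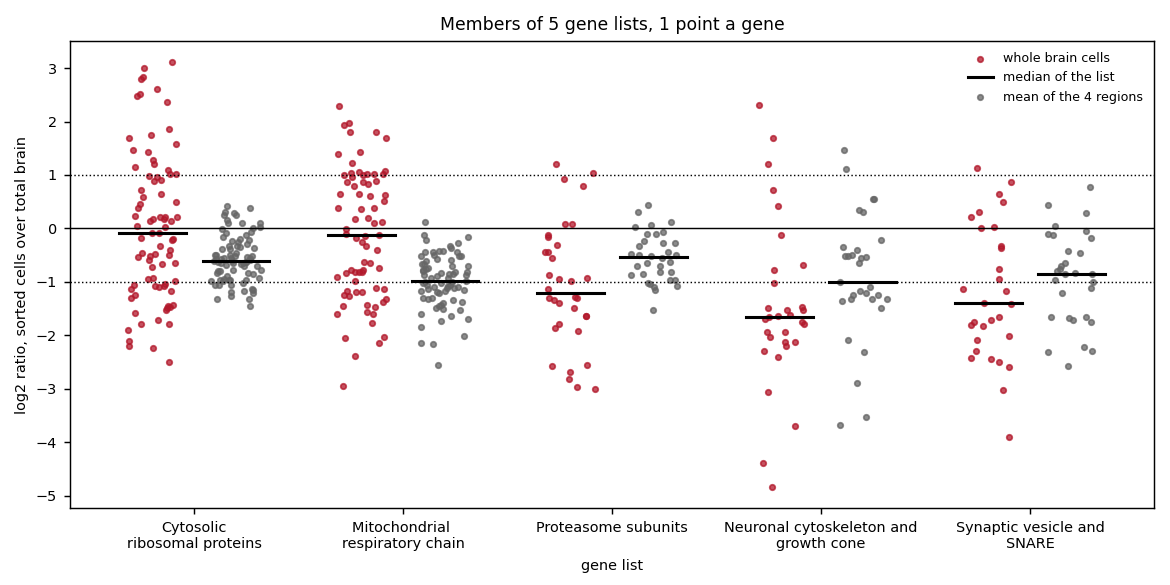
Log2 ratio of sorted cells over total brain (vertical axis) for every measured gene of 5 lists (horizontal axis), 1 point a gene, in whole brain cells (red, left) and in the mean of the 4 regions (grey, right), with black lines at list medians and dotted lines at 2-fold. Whole brain points of the ribosomal list spread from -2.49 to 3.11, against regional points from -1.45 to 0.42.

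The highest and lowest ratios were named by one rule for all genes: a called gene with a symbol, all 4 arrays and all measured probes in the same direction, the 20 highest and 20 lowest. Of the 20 highest, Dlx6os1, Dlx6, Rps12, Rps4x, Rps27, Rpl11 and Mcm7 belong to lists above. Romo1, a small protein of the inner mitochondrial membrane, had 2.83, 2.93, 3.00 and 2.93, and Cops9, a small subunit of the COP9 signalosome, 2.79, 3.02, 3.12 and 2.72. Snrpg, of the spliceosomal Sm core, averaged 2.69 ± 0.08 and Tiam2, an activator of Rac, 2.68 ± 0.06. Lce1h, a gene of the skin barrier, averaged 3.11 ± 0.09 and Olfr1153, an olfactory receptor gene, 2.60 ± 0.09. These 2 genes are known from skin and olfactory epithelium, each was read by 1 probe, and both were also above 0 in the mean of the regions, at 1.83 and 1.62. The others were Zfp516, Nmrk1, Gramd1a, Acsf2, Fancg, Loxl2 and Tmed10, between 2.53 and 2.81. Their other probes were nearer 0, at 0.13 and 0.36 for Zfp516, 0.25 and 0.31 for Fancg, 0.18 for Loxl2 and 0.76 for Tmed10, as was that of Rpl11 at 0.06. The mean of probes was 1.102 for Zfp516 and 1.04 for Fancg.

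Of the 20 lowest, Igf2, Mapre1, Gja1, Nr2f1, Syt4, H19, Enc1 and Apod belong to lists above. Cwc22, a splicing factor, was the lowest at -5.19, -5.35, -5.38 and -5.45. Cyria, a regulator of actin, averaged -4.61 ± 0.06, Snhg11, a noncoding RNA of neurons, -4.59 ± 0.08, and Enc1, an actin-binding protein of neurons, -4.40 ± 0.06. Apod, a lipid carrier of glia and meninges, was at -4.18 ± 0.07 and Rtn1, a reticulon of neuroendocrine cells, at -3.87 ± 0.09. The probes of Snhg11 ran from -4.59 to -1.54 and those of Rtn1 from -3.87 to -0.28. The others were Mmab, Herpud2, Vat1l, Olfm2, Gnaz, Rprm, Jph4 and Hspa12a, between -4.23 and -3.83. Second probes lay near 0 for Herpud2, at -0.04, and Jph4, at -0.13. Among called genes with at least 2 measured probes, 43.5% had probes of both signs, which is why the rule asked for probes of 1 sign.

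Longer genes were called lower more often. Gene span, the length from start to end in GRCm38.p6 with introns, was known for 17952 protein-coding genes. Of the 1466 genes of up to 2 kb, 10.1% were called higher and 4.57% lower. Of the 920 genes over 200 kb, 5.33% were called higher and 24.5% lower. Between these ends the share called lower was 14.1% in genes of 2 to 5 kb, 16.1% in genes of 10 to 20 kb and 20.1% in genes of 20 to 50 kb. The median span was 16.3 kb in genes called higher and 26.6 kb in genes called lower, against 19.9 kb in all. Across genes, which are not independent, Spearman's rho of span and ratio was -0.147, a weak relation, against -0.037 for the mean of the regions. In the regions the share called lower did not rise steadily: it was 4.91% up to 2 kb, 10.8% at 2 to 5 kb, 8.82% at 10 to 20 kb, 7.52% at 50 to 100 kb and 14.1% over 200 kb. Within the ribosomal proteins the median span was 2.44 kb in members called higher and 4.40 kb in members called lower, and within the respiratory chain 5.13 kb and 7.80 kb. The part of span, or of anything that goes with it, in these differences was not tested.

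**Figure D4:**
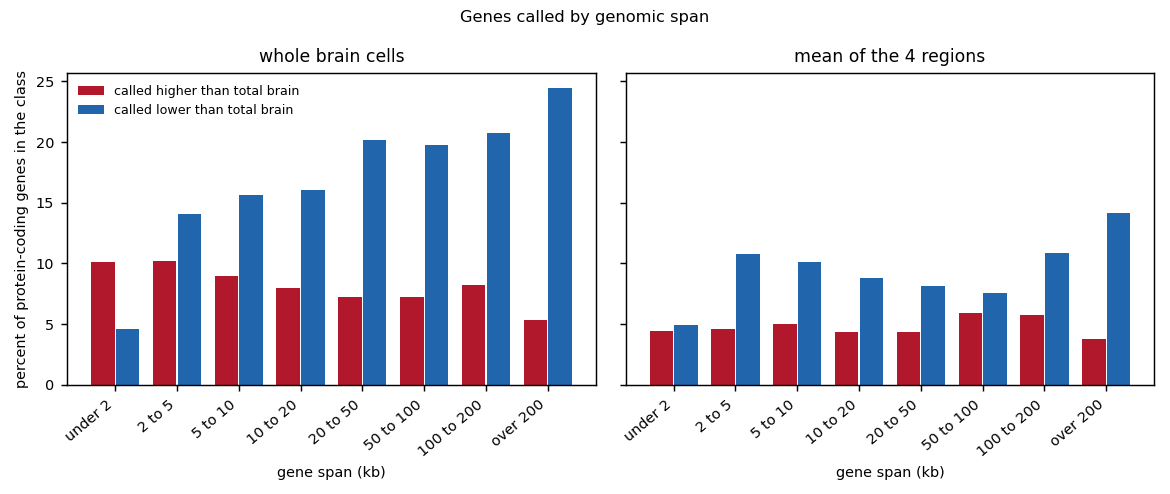
Percent of protein-coding genes called higher (red) or lower (blue) than total brain (vertical axis) in 8 classes of gene span in kb (horizontal axis), for whole brain cells (left) and for the mean of the 4 regions (right). In whole brain cells the blue bar is 4.57% in genes of up to 2 kb and 24.5% in genes over 200 kb, while in the regions the blue bars show no steady rise, with 10.8% at 2 to 5 kb, 7.52% at 50 to 100 kb and 14.1% over 200 kb.

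Whole brain cells differed from the mean of the 4 regions in 808 genes called higher (2.96%) and 1865 called lower (6.84%). The 4 whole brain arrays lay outside the range of the 12 regional arrays for 797 of the genes called higher (2.92% of all genes tested) and 1836 of those called lower (6.73%). These comparisons share the reference RNA and lie in the scan batches stated above, so the values are given side by side with the fitted difference. Of these 2673 genes, 99.2% had the larger part of the difference in the sorted cell channel, where the median size was 1.36 on the log2 scale, against 0.14 in the reference channel. Among the 12 genes furthest above the regions, by the rule that all 4 whole brain arrays lie outside the range of the 12 regional arrays and all probes differ in the same direction, were Romo1, Rps4x, Cops9, Tubb2b, Rps12, Atp5e, Atp5g3, Rpl22l1, Rplp2, Rplp1 and Rps27. Romo1 averaged 2.92 in whole brain cells and -1.11 in the regions, a difference of 4.03 ± 0.08 (limma adjusted p = 6.61e-18). Its 12 regional arrays lay between -1.62 and -0.60, far from the whole brain arrays. Tubb2b averaged 2.32 in whole brain cells and -1.32 in the regions, a difference of 3.64 ± 0.08. Of the genes named, 6 encode ribosomal proteins and 2 subunits of ATP synthase. For Rplp2 the difference was 3.09 by the brightest probe and 0.01 by the other.

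The 12 genes furthest below the regions by the same rule were Mapre1, Sox11, Nfib, Actb, Samd8, Peg10, Fyn, Ptbp2, Nlk, Eml4, Ago4 and Zic2. Their ranks rest on the brightest probe, and other probes of some differed little from the regional arrays. The smallest difference by a probe was -0.15 for Mapre1, -0.22 for Samd8 and -0.007 for Ago4, against -0.97 for Sox11. Sox11, a factor of newborn neurons, had -2.23, -2.27, -2.19 and -2.31 in whole brain cells, against 1.30 to 1.98 on the 12 regional arrays. Only 1 of its 6 probes was above 0 in whole brain cells, at 0.04, and its mean over probes was -0.81, short of 2-fold. Actb stood at -2.13 in whole brain cells and 1.47 in the regions, a difference of -3.60 ± 0.08. Nfib averaged -2.01 in whole brain cells and 1.75 in the regions. Zic2, a zinc finger factor, averaged -2.83 in whole brain cells, while its regional arrays ran from -1.20 to 2.51. Fyn, a tyrosine kinase of axons, Ptbp2, a neuronal splicing repressor, and Ago4, of small RNA silencing, were at -2.92, -2.14 and -2.55 in whole brain cells and at 0.45, 1.18 and 0.50 in the regions. Ptbp2 and Ago4 had probes of both signs over total brain and were short of 2-fold there with the mean of probes.

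Counts by list against the regions stand beside 2.96% of all genes called higher and 6.84% called lower. Of 82 ribosomal protein genes, 26 were higher and 10 lower in whole brain cells than in the regions. Their medians were -0.08 in whole brain cells and -0.60 in the regions. In the mean of the regions, where 5.32% of all genes were called higher than total brain and 7.05% lower, 0 ribosomal protein genes were called higher and 13 lower. The 20 called higher in whole brain cells had regional values from -1.32 to 0.25. Of 75 respiratory chain genes 33 were higher and 4 lower than in the regions, with medians of -0.12 in whole brain cells and -0.99 in the regions. Of 34 proteasome genes 3 were higher and 14 lower, with medians of -1.21 in whole brain cells and -0.53 in the regions. Neuronal lists differed too: 11 of 23 RNA-binding and early neuronal genes were lower and 0 higher. Of 31 cytoskeletal and growth cone genes 8 were lower and 3 higher. General housekeeping gave 7 lower and 0 higher of 19, and nuclear factor I genes 3 lower and 0 higher of 4. In the Dlx list 1 of 5 genes, Dlx1, was lower than in the regions, and in the glutamatergic list 2 of 21 were, against 6.84% of all genes. In the Hox list none was called. Of the genes of GABA synthesis, release and uptake, Gad1 and Gad2 were lower in whole brain cells than in the regions, Gad2 by -1.87, with -0.28 in whole brain cells and 1.60 in the regions.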

How the data were processed

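Fluorescent cells sorted from whole brain and from 4 regions were set against one total brain reference on 2-colour arrays. Per the file headers, each deposited scanner file gives the mean intensity of each spot and its local background in both channels, flags, and the scanner software's log10 ratio of red over green. Agilent Feature Extraction 8.1.1.1 made them, per the submitters' processing notes. The authors' deposited value table holds the same log10 ratios to within 0.005.

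Intensities were background corrected (normexp, offset 50) and normalized within each array by loess, with control and outlier spots at weight 0 and marked spots left out. Probes (41174) were named through accessions, symbols and synonyms of RefSeq, and 9662 kept the name in the file. The brightest probe stood for a gene. Of 28655 genes, 27262 were tested: their probe was well above background in the sorted channel of at least 3 arrays or the reference channel of at least 8, and 1393 were removed. limma 3.58.1 fitted 5 group means on all 16 arrays, with Benjamini-Hochberg adjustment over all genes. Whole brain was tested against 0 and against the mean of regions. The fit was tested on simulated data. The arrays and the 44 gene lists (1055 genes, 1021 measured) were chosen with earlier results of these data known. Genes were named by the rule in the text, 12 each way against the regions, or as list members. Replicate numbers were not treated as pairs across groups. Departures from group means of same-numbered arrays correlated at r between -0.0994 and 0.208, from 0.107 up for replicate 1, which cannot settle whether samples were paired. A planned relation with protein length was replaced by gene span, since no protein table was used here. Some genes that met the rule or belong to a list are not reported here.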

Additional observations from a re-analysis of the deposited data

Results flagged for a closer look

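One whole brain array stood apart from the other 3 for 15 of the 159 named genes checked, by the gap of the extreme array relative to the range of all 4; chance alone marks about 1 in 20 genes in this way. Replicate 4 was the array apart for Cldn5 at -1.30, Dcx at -2.34, Gad2 at -0.40, Gap43 at -3.98, Pkm at -3.02, Rpl11 at 3.17, Slc6a13 at -1.28, Wnt5b at 1.95, Wnt6 at 1.48 and Zfp516 at 2.68. Replicate 1 was the array apart for Mki67 at 0.85, Nkx2-1 at -1.32, Psma2 at 0.81, Slc17a7 at -2.003 and Sp8 at 0.97. In each of these genes the other arrays had the same sign as the array apart. Of the 4 whole brain arrays, replicates 1 and 4 also had the lower array weights in limma, 0.323 and 0.310.

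Some named genes were called in opposite directions in whole brain cells and in the mean of the regions, with the difference between them called by limma. Higher in whole brain cells were Romo1 with a difference of 4.03, Rps4x with 3.97, Tubb2b with 3.64, Atp5e with 3.46, Atp5g3 with 3.25, Rplp1 with 3.05 and Ndufb11 with 2.84. Lower in whole brain cells were Sox11 with -3.89, Nfib with -3.76, Actb with -3.60 and Ptbp2 with -3.32. The scan batch differs between whole brain and regions for every one of these genes, and cannot be told apart from the difference.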

How the results depend on the processing

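No called gene named in the text reversed under an alternative. The numbers of genes called higher over total brain, 2355, and called against the regions, 808 higher and 1865 lower, moved by over 1.5 times with the scale of the ratio. The 3736 called lower over total brain stayed within 1.5 times, from 2542 with median centring to 4732 with the scanner's log ratio. With no offset in normexp, 4728 genes were higher over total brain, and 1742 were higher and 2837 lower than the regions. With the scanner's log ratio, 5864 were higher over total brain, and 2249 higher and 3127 lower than the regions. With median centring, 5359 were higher over total brain and 1491 higher than the regions. With scaling between arrays, 1440 were higher over total brain and 1238 lower than the regions. Of list members, 102 were called higher and 303 lower. The number called higher moved to 159 with the scanner's log ratio, to 194 with median centring and to 55 with scaling between arrays. The cause was not tested. Of the genes called, 930 higher and 1774 lower were called in the same direction under every alternative, as were 115 of the 145 named genes called. The mean of probes gave 4 genes the opposite call.

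Leaving out each whole brain array in turn gave 2230 to 2509 genes higher and 3677 to 3844 lower over total brain, 763 to 874 higher and 1837 to 1937 lower than the regions, and 93 to 113 list members higher and 300 to 311 lower. Slc17a6 gained a call without replicate 1 (-1.02). Without replicates 1 and 4 together, chosen after seeing the data, 2733 genes were higher and 3913 lower. A block for replicate number gave 2356 higher and 3738 lower over total brain, and 832 higher and 1858 lower than the regions. The scan batch as a block against the regions was not run, because each batch holds whole brain or regions alone. Signal over background limits 47 called genes, which were not well above background in one channel on any whole brain array.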
